A study of Ovis aries and Bos taurus with 10 samples.

Results

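Follistatin (FST), the inhibin and activin subunits (INHA, INHBA and INHBB) and anti-Müllerian hormone (AMH) were followed in sheep granulosa cells (GC) and oocytes of early follicles. The genes were looked for by the annotation of the Affymetrix Bovine Genome Array, taking each probe set annotated with one of the 5 symbols and with no other. This gave 4 probe sets, 1 each for FST, INHA, INHBA and AMH, of 24016 on the array beside its controls. INHBB, the betaB subunit, had no such probe set and is not analysed here.

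Inhibins and activins are dimers assembled from shared subunits. An inhibin pairs the alpha subunit, encoded by INHA, with a beta subunit, and an activin pairs beta subunits with each other, so that INHBA, the betaA subunit, serves both hormones. Follistatin binds activins outside the cell and keeps them from their receptors, and inhibins compete with activins for those receptors. In the ovary these factors and AMH, another hormone of the TGF-beta family, are known as products of the GC of growing follicles, where AMH restrains the recruitment of resting follicles.

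The study cut oocytes and GC by laser capture microdissection (LCM) out of ovaries of newborn lambs under 1 day old and hybridized 6 arrays, 1 of GC and 1 of oocytes from primordial, primary and secondary follicles. The GC arrays are PDG, PMG and SECG and the oocyte arrays PDO, PMO and SECO. Each array received RNA pooled from 2 animals at the primordial and secondary stages and 4 at the primary stage, amplified in double rounds and labelled with the Arcturus turbo kit, the protocol named P3. Whole fetal ovary gave 4 further arrays, with ovine tissue at 132 days post coitum under P3, under P2 (double amplification with Affymetrix labelling) and under P1 (standard Affymetrix labelling), and bovine tissue at 8 months post coitum under P1. No array had a replicate, so the 3 stages stood in for replicates of a compartment, and sheep RNA was read on bovine probes throughout except on the bovine array.

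The values are linear MAS 5.0 signals with a common trimmed mean of 100. A probe set counted as detected when it lay among the brightest probe sets of its array, in the share of present calls that the study gave for that array. The resulting detection limit lay between 45.8 and 74.2 on the LCM arrays and between 28.9 and 44.7 on the fetal arrays. Differences are of log2(signal + 20), a constant that shrinks the differences of dim probe sets. The signal of a member was compared between arrays, and never with that of another member. Ranks within an array and sums over marker lists do take in different probe sets.

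The labels of the LCM arrays were set against marker genes. Of 9 oocyte markers on the array, 7 were detected on at least 1 GC array and 9 on at least 1 oocyte array, and their summed signals were 3057 on PDG, 5680 on PMG and 3476 on SECG, against 7759 on PDO, 7940 on PMO and 2792 on SECO. PDO and PMO thus lay above all 3 GC arrays, and SECO lay below them, against its label. The GC markers other than FST, INHA, INHBA and AMH numbered 12, of which 7 were detected in GC and 5 in oocytes. Their summed signal was 946 on PDG, 1327 on PMG and 2465 on SECG, against 699 on PDO, 996 on PMO and 1080 on SECO, so that both PMO and SECO exceeded PDG. FOXL2, KITLG, FSHR, CYP19A1 and NR5A2 were under the detection limit on all 6. Along with these differences went others in RNA that belongs to neither compartment: the 6 stroma markers summed to 47047, 29508 and 12698 on PDG, PMG and SECG, and to 15749, 4369 and 15686 on PDO, PMO and SECO. The GC and oocyte samples are therefore called by their labels, with markers of the other compartment and of stroma present in both. The INHBA course in oocytes is also given without SECO, and the fitted compartment differences without the secondary stage. Correlations and nearest profiles were computed only with SECO included.

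**Figure D1:**
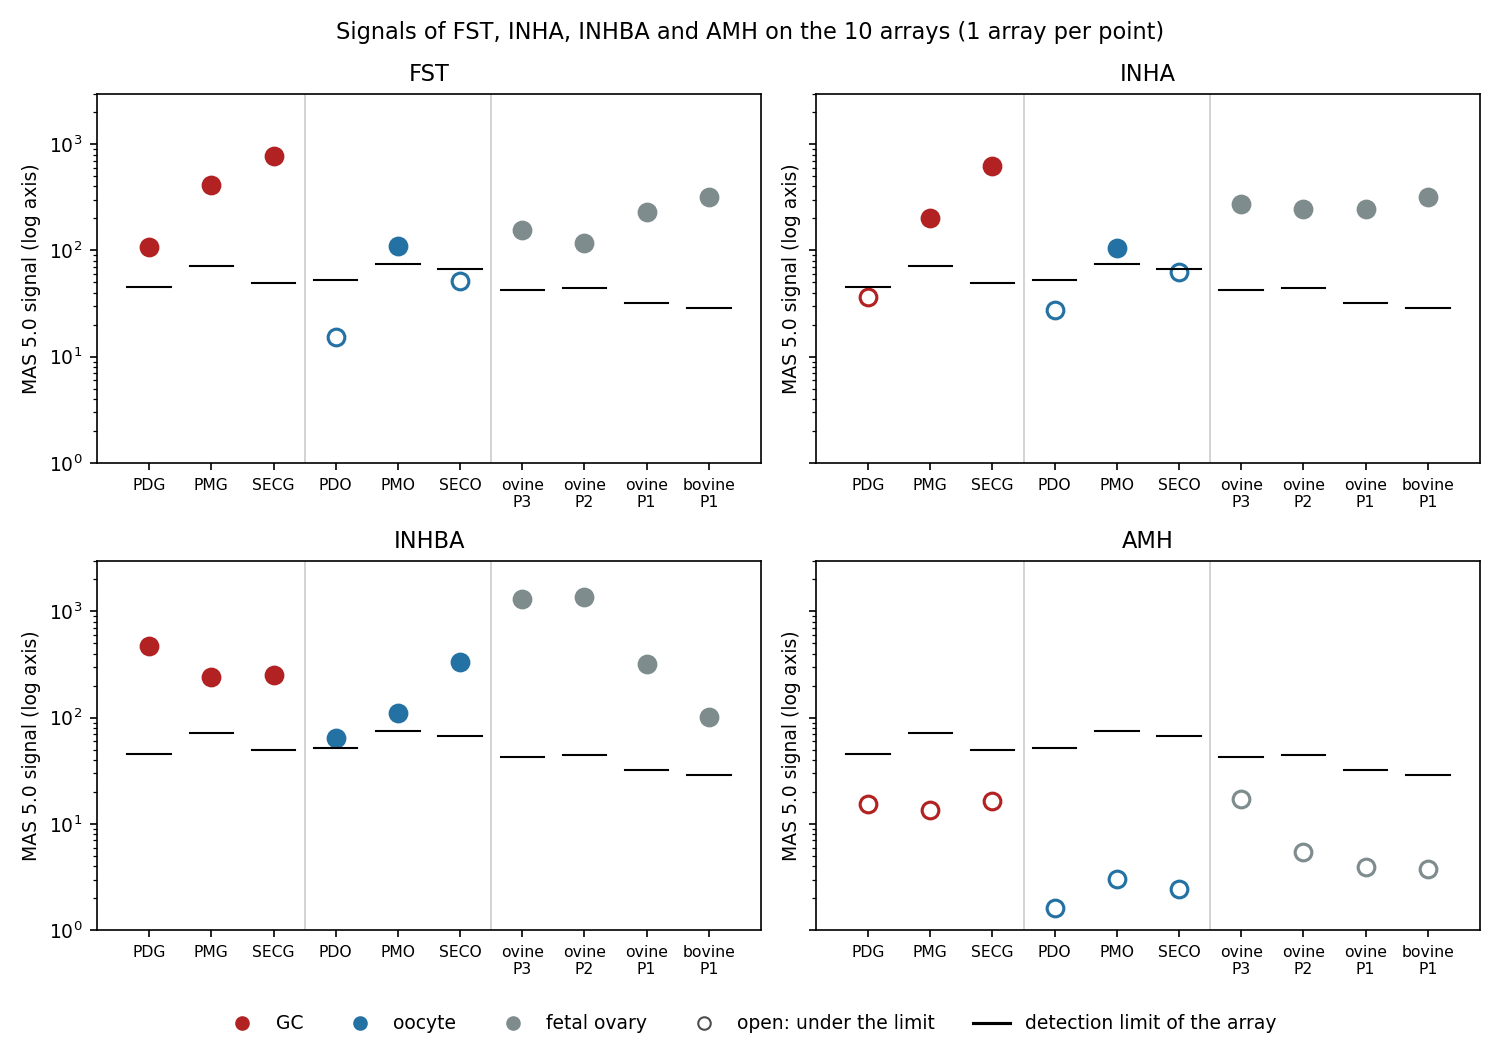
MAS 5.0 signals of FST, INHA, INHBA and AMH on the 10 arrays, on a log axis, 1 array per point, with GC in red, oocytes in blue and fetal ovary in grey. The short lines mark the detection limit of each array and open points lie under it: FST reaches 776 and INHA 617 on SECG, INHBA is detected on all 10 arrays and AMH on 0.

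The antagonists of activin, FST and INHA, had higher signals in GC at each later stage. FST, the binding protein, read 107 on PDG, 410 on PMG and 776 on SECG. It was detected on all 3 GC arrays, with 20.6%, 7.36% and 4.35% of all probe sets brighter. The signal was 7.27-fold higher in secondary than in primordial GC, a log2 difference of 2.65, and 36 of the 10089 probe sets detected on either array (0.357%) were higher by as much. Most of the difference lay in the first step, with a 3.84-fold higher signal in primary than in primordial GC and a 1.90-fold higher one in secondary than in primary GC.

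INHA, the subunit that makes an inhibin, read 36.7 on PDG, 200 on PMG and 617 on SECG. The PDG signal was under the limit of 45.8, so the change has only a bound: the signal was at least 13.5-fold higher in secondary GC than in primordial GC. On the log2 scale the difference was 3.49, and 2 of the 10089 probe sets, INHA included, were higher by as much. Primary GC exceeded primordial GC at least 4.38-fold, and secondary GC exceeded primary GC 3.08-fold. The size of the INHA difference on the log2 scale moves with the constant, since it takes in the undetected PDG signal, between 2.94 and 4.07 over the settings tried.

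INHBA, which makes activin as well as inhibin A, took another course. Its signals were 470 on PDG, 244 on PMG and 253 on SECG, all detected. The secondary GC array stood at -0.85 on the log2 scale against the primordial one, a 1.86-fold lower signal, and 12.3% of the probe sets were lower by as much. The step lay between primordial and primary GC, where the signal was 1.93-fold lower in primary GC, while secondary and primary GC differed by 0.05 on the log2 scale. Each of these values rests on 1 array per stage and has no test.

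**Figure D2:**
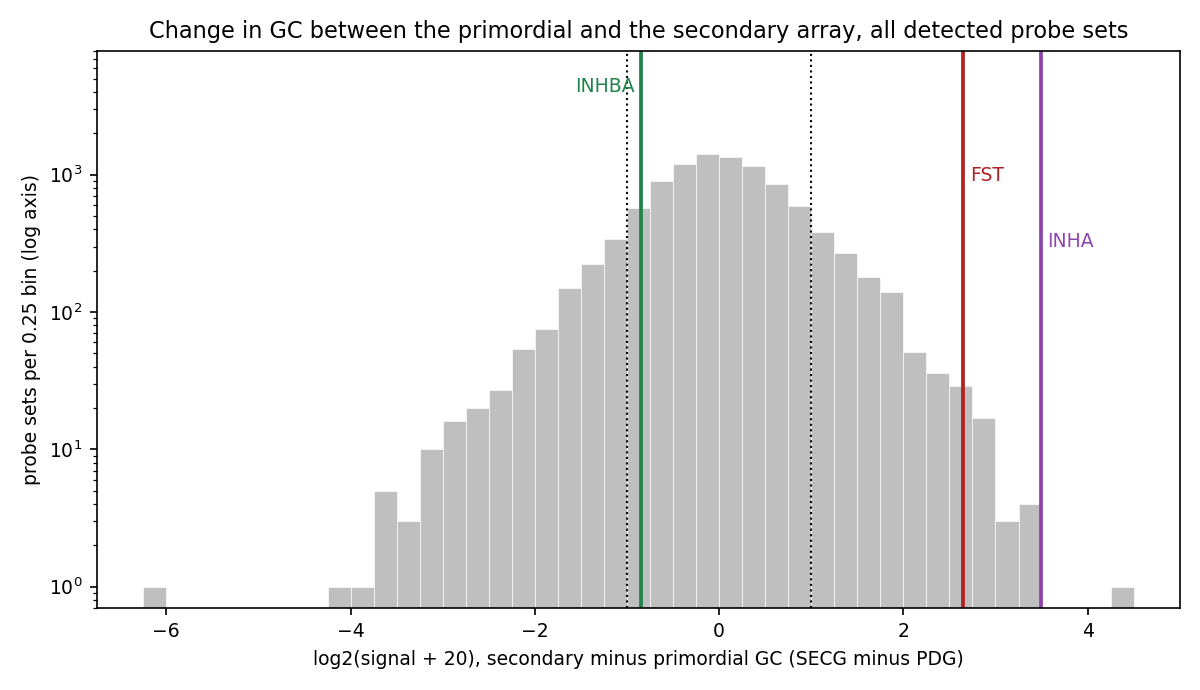
Histogram of the log2(signal + 20) differences between SECG and PDG for the 10089 probe sets detected on either array, with the number of probe sets on a log axis and dotted lines at 2-fold. FST (2.65) and INHA (3.49) stand in the right tail and INHBA (-0.85) inside the dotted lines.

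As background to these counts, 11.0% of the probe sets were at least 2-fold higher in secondary than in primordial GC and 9.17% at least 2-fold lower. The first step had 7.75% at least 2-fold higher in primary than in primordial GC, and the second 10.8% higher in secondary than in primary GC. A signal higher at each stage than at the one before and at least 2-fold higher in secondary than in primordial GC, as FST and INHA had, was found for 7.55%. Markers of other cells moved along the same arrays. Of 6 endothelium markers 4 were detected in GC, with VWF and KDR under the limit, and the list summed to 2655 on PDG, 991 on PMG and 368 on SECG. All 6 stroma markers were detected in GC, with the sums given above. Both sums were thus lower at later stages, while the sum of the GC markers was higher. Single genes of the GC and stroma lists did not all follow the sum of their list. The share of GC in the captured RNA and the transcript level within GC cannot be told apart on such arrays. The part of the other cells' RNA in the courses of FST, INHA and INHBA was not tested.

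In oocytes the antagonists were near or under the limit. FST read 15.2 on PDO, 111 on PMO and 51.4 on SECO, detected on PMO only, against a limit there of 74.2. INHA read 27.4 on PDO, 105 on PMO and 62.6 on SECO and was likewise detected on PMO only. Primary oocytes exceeded primordial oocytes at least 2.13-fold for FST and at least 2.01-fold for INHA, and between secondary and primordial oocytes no fold can be given for either.

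INHBA was detected in oocytes at all stages, at 64.1 on PDO, 110 on PMO and 334 on SECO. Its signal was 5.20-fold higher in secondary than in primordial oocytes, a log2 difference of 2.07. Of the probe sets detected on either array, 13.6% were at least 2-fold higher in secondary oocytes and 1.56% were higher by as much as INHBA. The SECO array also carried the highest summed signal of the 4 red blood cell markers, of which 2 were detected, 4460 against 67.8 to 796 on the other 5 LCM arrays, its stroma sum of 15686 was close to that of PDO, and its oocyte marker sum of 2792 was the lowest of the 6. The 3′ bias differed along the same arrays. The GAPDH control had 13.8, 19.8 and 25.2 times the signal at its 3′ end as in its middle on PDO, PMO and SECO, and its 3′ to 5′ ratio was 328 on SECO against 10.6 to 31.3 on the other 5. The study itself gave no GAPDH 3′ to 5′ ratio for SECO, so 328 is only the quotient of the deposited signals. For a second control, GST, the 3′ to 5′ ratio that the study gave was not highest on SECO. The part of these marker and 3′ bias differences in the INHBA signal was not tested. Without SECO, the remaining step is the 1.71-fold higher signal in primary than in primordial oocytes.

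Set against oocytes of the same stage, GC had the higher FST signal at all 3 stages, as did 17.1% of the probe sets tested. Primordial GC exceeded primordial oocytes at least 2.04-fold, primary GC exceeded primary oocytes 3.69-fold and secondary GC exceeded secondary oocytes at least 11.5-fold. At the secondary stage 6 of 9566 probe sets (0.0627%) leaned as far toward GC. The oocyte side there is SECO, whose oocyte marker sum lay below those of all 3 GC arrays. The compartments still overlapped across stages, since PDG at 107 lay below PMO at 111.

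INHA could not be compared at the primordial stage, with both arrays under their limits. Primary GC exceeded primary oocytes 1.91-fold, and secondary GC exceeded secondary oocytes at least 9.14-fold, a log2 difference of 2.95 that 22 of 9566 probe sets (0.230%) matched or passed. The lead of GC in INHA was thus carried by the secondary stage. That stage again sets GC against SECO. The PMG signal, 200, lay above all 3 oocyte signals, and the PDG signal, 36.7, lay below 2 of them.

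INHBA differed in the other order of stages. The signal was 7.32-fold higher in primordial GC than in primordial oocytes, with 20 of 9848 probe sets (0.203%) leaning as far, and 2.22-fold higher in primary GC than in primary oocytes. At the secondary stage it was lower in GC, 253 on SECG against 334 on SECO, a log2 difference of -0.38. Of the 9566 probe sets, 30.6% leaned at least as far toward oocytes, and this difference of single arrays had no test. A pattern of this kind, higher in GC at the primordial and primary stages and lower at the secondary stage, was shared by 14.3% of the probe sets. The shares at least 2-fold higher in GC than in oocytes were 10.3% at the primordial, 11.5% at the primary and 9.69% at the secondary stage.

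**Figure D3:**
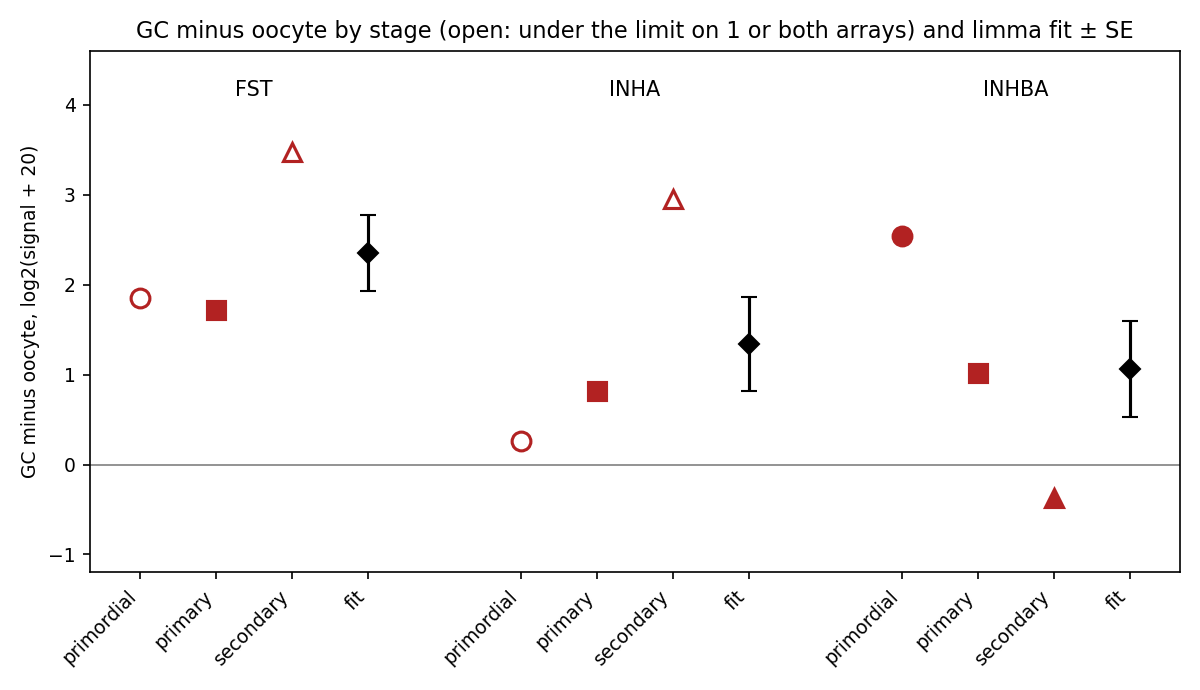
GC minus oocyte differences of log2(signal + 20) for FST, INHA and INHBA, in red by stage, with open points where 1 or both arrays were under the detection limit, and in black the limma estimate over the stages with its SE. The FST and INHA differences are largest at the secondary stage (3.48 and 2.95), and that of INHBA is largest at the primordial stage (2.54).

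Over the 3 stages the differences were fitted by limma with stage and compartment as terms. On the log2 scale FST averaged 8.46 ± 1.35 in GC and 6.11 ± 0.95 in oocytes (SD, n = 3 each), a difference of 2.35 ± 0.42 (SE), with an adjusted p of 0.406. Only 3 of the 11642 probe sets tested leaned further toward GC. INHA averaged 7.64 ± 1.75 in GC and 6.30 ± 0.70 in oocytes, a difference of 1.34 ± 0.52, with an adjusted p of 0.423. INHBA averaged 8.36 ± 0.50 in GC and 7.29 ± 1.06 in oocytes, a difference of 1.06 ± 0.53, with an adjusted p of 0.494. The FST and INHA estimates take in signals under the limit, those of PDO and SECO for both and that of PDG for INHA, so no fold is given for them.

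None of the 3 passed the threshold of 0.05, and neither did any other probe set. The fit called 0 (0%) of 11642, with 1295 at an unadjusted p under 0.05 and a smallest adjusted p of 0.406, so that FST shared the smallest value. Of the tested probe sets, 7.71% had all 3 GC signals above all 3 oocyte signals, and FST, INHA and INHBA were not among them. The averages hide the stages: without the secondary stage the INHA difference was 0.54, and without the primordial stage the INHBA difference was 0.32, while FST stood at 2.60 without the primordial, 2.66 without the primary and 1.78 without the secondary stage. The INHBA difference was 1.78 without the secondary stage.

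AMH, the hormone of growing follicles, was under the detection limit on all 10 arrays. It read 15.5 on PDG, 13.6 on PMG and 16.6 on SECG, against 1.61 on PDO, 3.03 on PMO and 2.42 on SECO. All 3 GC signals lay above all 3 oocyte signals, as for 3.62% of the 12374 probe sets detected on no LCM array, yet the brightest, SECG, was at 0.334 of its limit. The fetal ovaries read 17.1 under P3, 5.50 under P2 and 3.90 under P1 for sheep, and 3.80 for cattle. As the bovine tissue on its own species' probes was also under the limit, this probe set gave no measured level of AMH, and no fold or course is given. A signal under the limit does not show that the transcript was absent.

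The fetal ovary arrays give the signals of the same probe sets under P1, P2 and P3 in sheep, and under P1 in cattle. FST read 156 under P3, 117 under P2 and 232 under P1 in sheep and 319 in cattle, and INHA read 274, 243 and 248 under P3, P2 and P1 and 322 in cattle. For both the 4 signals lay within a 3-fold range. INHBA read 1317 under P3 and 1378 under P2, against 317 under P1, with the same tissue and age. Its signal was thus 4.15-fold higher under P3 than under P1 and 4.34-fold higher under P2 than under P1, while P3 and P2 differed by -0.06 on the log2 scale. The median of all probe sets stood at -0.22 between P3 and P1, and 14.2% were at least 2-fold higher under P3. FST stood at -0.52 and INHA at 0.14 in that comparison.

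The amplified labellings read transcripts closer to their 3′ ends. The GAPDH control had 15.0 times the signal at its 3′ end as in its middle under P3 and 10.8 times under P2, against 0.804 under P1, and the ratio was 13.9, 21.1 and 18.5 on PDG, PMG and SECG. All 6 LCM arrays were labelled by P3, but the ratio still differed between them and was highest on SECO, where INHBA was highest among the oocyte arrays. Among the GC arrays the order was the other way, with INHBA highest on PDG, where the ratio was lowest. The part of the 3′ bias in the INHBA differences was not tested. Between species under P1, INHBA was 3.15-fold higher in sheep than in cattle, where 12.3% of all probe sets were at least 2-fold higher in sheep, while FST stood at -0.42 and INHA at -0.36. Species, age and the match of sheep RNA to bovine probes cannot be told apart here.

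Against whole ovine fetal ovary labelled by the same P3, the members parted again. FST was 1.46-fold lower on PDG but 2.63-fold higher on PMG and 4.99-fold higher on SECG than in the fetal ovary. INHA was at least 5.99-fold lower on PDG, where it was not detected, 1.37-fold lower on PMG and 2.25-fold higher on SECG. INHBA was lower on all 3 GC arrays than in the fetal ovary, by 2.80-fold on PDG, 5.41-fold on PMG and 5.21-fold on SECG. A signal at least 2-fold lower on all 3 GC arrays was found for 4.73% of the probe sets. The fetal ovary holds all ovarian cell types at another age, and these are ratios of single arrays.

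Across the 6 LCM arrays FST and INHA ran together (Pearson r = 0.93 of their log2 signals), and INHBA with neither (r = 0.40 with FST and 0.17 with INHA). These are descriptions over 6 arrays that share stages and labelling, with no test. They take in signals under the limit, of INHA on PDG, PDO and SECO and of FST on PDO and SECO. The genes nearest to each in profile, among 5425 probe sets detected on at least 3 LCM arrays, were taken as the first 3 by r. Picked by r, they resemble the member by that choice. For FST they were PHGDH, the first enzyme of serine synthesis (r = 0.995), SLC25A6, a mitochondrial carrier of ADP and ATP (0.989), and GSTA2, a glutathione transferase (0.984). PHGDH read 202, 430 and 720 on PDG, PMG and SECG, against 84.3, 236 and 159 on PDO, PMO and SECO. It was thus highest on SECG like FST, and detected on all 6 arrays.

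For INHA the nearest were MACROH2A2, a histone variant (0.993), ITGBL1, a secreted protein with integrin-like repeats (0.992), and PGAM1, an enzyme of glycolysis (0.985). ITGBL1 read 61.7, 286 and 849 on PDG, PMG and SECG, against 50.2, 120 and 74.5 on the oocyte arrays of the same stages. For INHBA they were SDC2, a heparan sulfate proteoglycan of the cell surface (0.997), RPL9, a ribosomal protein (0.996), and RAB5C, a GTPase of early endosomes (0.993). SDC2 read 590, 350 and 381 on PDG, PMG and SECG, against 126, 186 and 504 on PDO, PMO and SECO, with its lowest oocyte signal at the primordial stage and its highest at the secondary one, as INHBA had. RPL9 shared the shape over a much narrower range, 6940 to 10917.

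The partners of these hormones were counted over a list of 60 further genes of TGF-beta, activin and BMP signalling, of which 32 had a probe set and 21 were detected on at least 1 LCM array. None of the 21 passed the fit, with a smallest adjusted p of 0.406, and their median difference was 0.10 against -0.02 for all probe sets tested. GC were higher than oocytes at all 3 stages for 3 of them (ACVR1, BMPR2 and LTBP1) and lower at all 3 for 2 (FSTL3 and BAMBI), against 17.1% and 17.7% of all probe sets tested. For BMPR2 the primordial stage, and for FSTL3 all stages but one, compare 2 signals under their limits. From primordial to secondary GC, 18 could be followed, of which 1 was at least 2-fold higher and 6 at least 2-fold lower, with a median of -0.33 against 0.00 for all probe sets. The shares over all probe sets were 11.0% at least 2-fold higher and 9.17% at least 2-fold lower. Some of the lower ones were not detected on SECG. The higher one was BMPR2, not detected on PDG. Among the lower ones was TGFBR2, a receptor of TGF-beta, with 1714 on PDG, 572 on PMG and 438 on SECG. ACVR1, BAMBI and TGFBR2 are named with their values already seen. The summed stroma signal was lower along the same arrays, and the part of stroma in these signals was not tested.

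The receptors that bind activin first were not measured: ACVR2A and ACVR2B were under the limit on all LCM arrays, and ACVR1B, TGFBR3, which helps inhibin to bind, and AMHR2, the receptor of AMH, had no probe set with that symbol. ACVR1, a type I receptor, was detected on all 6, at 408, 392 and 344 in GC against 268, 178 and 266 in oocytes. BMPR2, a type II receptor for BMPs that can also bind activins, differed by 0.17 ± 0.30 (adjusted p = 0.858). FSTL3, a relative of follistatin that also binds activin, leaned the other way from FST. It read 15.7, 30.9 and 34.4 on PDG, PMG and SECG, none detected, against 60.9, 56.6 and 50.6 on PDO, PMO and SECO, of which 1 was detected, and the difference was -0.71 ± 0.32 (adjusted p = 0.462). LTBP1, which holds latent TGF-beta in the matrix, had the widest difference of the list that kept its sign, 1.65 ± 0.37 (adjusted p = 0.406), at 144, 90.8 and 57.1 in GC against 24.6, 3.93 and 22.5 in oocytes, where it was not detected. Its GC signal was lower at each later stage, unlike that of FST.

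**Figure D4:**
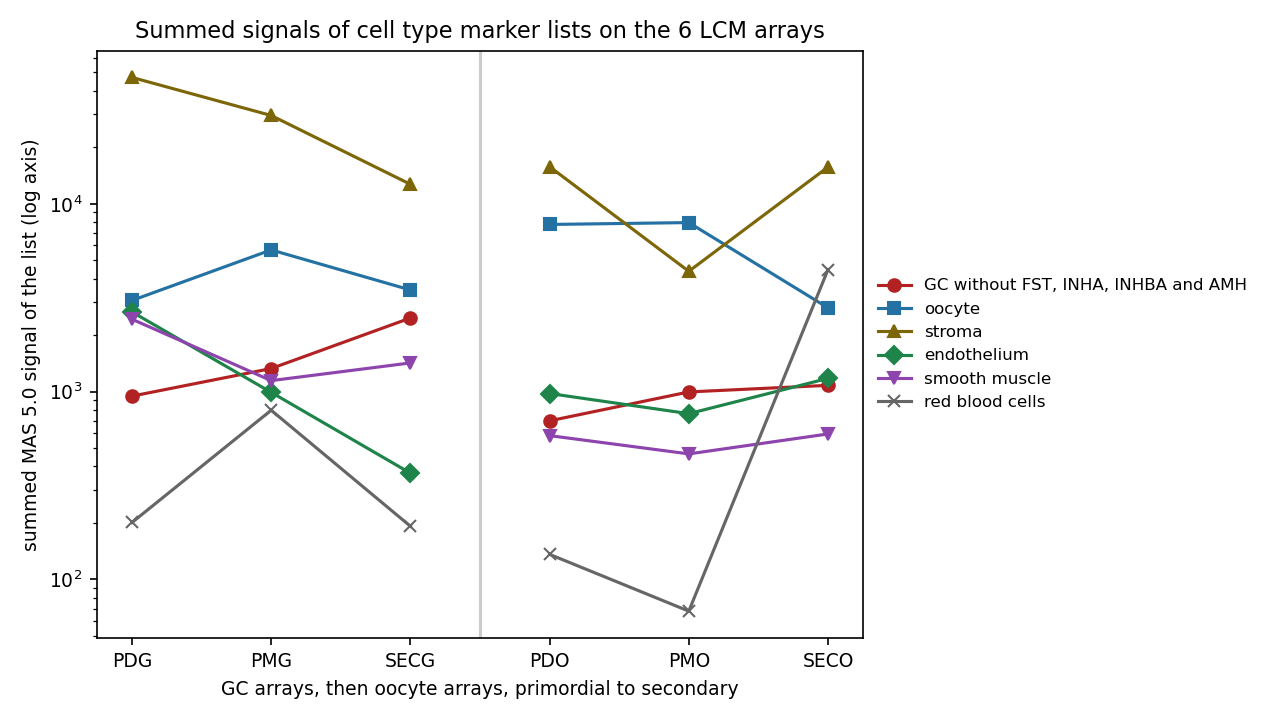
Summed MAS 5.0 signals of marker lists on the 6 LCM arrays, on a log axis, GC arrays to the left and oocyte arrays to the right, each from primordial to secondary. The GC list without FST, INHA, INHBA and AMH is highest on SECG (2465), the stroma list is highest on PDG (47047), and the red blood cell list on SECO (4460).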

How the data were processed

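The deposited values are MAS 5.0 signal intensities, scaled by the authors to a mean of 100 after trimming 2% of probe sets at either end, and no column was left out (0 not used). GCOS and MAS 5.0 are named by the submitters without further versions. Annotation was the platform's, with 13292 probe sets of 1 symbol, and 112 controls were left out. The 5 genes and all lists were chosen with earlier results of these data known.

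Of 24016 probe sets, 11642 detected on at least 1 LCM array entered limma 3.58.1 (R 4.3.3) on log2(signal + 20), with stage and compartment as terms, no sample dropped, 2 residual and 5.43 prior degrees of freedom and Benjamini-Hochberg adjustment. Folds are ratios of signals, and against an undetected array the higher of its limit and its signal was used, giving "at least". Genes were named if they were members, among the 3 nearest in profile to a member, receptors or antagonists of one, or listed genes with a difference of at least 1 and one sign. Alternatives were an added constant of 1 or 50, a floor at 20, quantile normalization, other filters and detection rules, no stage term, an intensity trend and leaving out each stage. The number of arrays limits the precision. The quantitative PCR is not analysed here.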

Additional observations from a re-analysis of the deposited data

Results flagged for a closer look

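INHBA ran in opposite directions along the stages of the 2 compartments. The difference between the secondary and the primordial array was -0.85 on the log2 scale in GC and 2.07 in oocytes. Correspondingly, GC stood above oocytes by 2.54 at the primordial and 1.02 at the primary stage, and the difference was -0.38 at the secondary stage. With 1 array per compartment and stage the difference between the courses was not tested. The oocyte course and the secondary difference rest on SECO. Its oocyte marker sum was the lowest of the 6 LCM arrays and its GAPDH 3′ to middle ratio was the highest.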

How the results depend on the processing

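FST, INHA and INHBA kept a positive GC minus oocyte difference and an adjusted p above 0.05 under all 12 alternatives, with differences of 1.78 to 2.83 for FST (adjusted p 0.0532 to 0.618), 0.54 to 1.88 for INHA (0.253 to 0.645) and 0.32 to 1.78 for INHBA (0.360 to 0.924). An intensity trend in the variance raised the count of called probe sets to 10, none of them a member. The secondary minus primordial difference of INHA in GC was 4.03 with a constant of 1, 2.94 with a constant of 50 and 4.07 with a floor at 20. By construction this comes from its undetected PDG signal. Raising all signals to the detection limit, chosen after the data were seen, gave GC minus oocyte differences of 1.90 for FST, 1.18 for INHA and 1.06 for INHBA. Members were detected on 25 of their 40 readings, and on 24 to 27 under the other detection rules, with AMH on 0 in each. The mean over the probe sets of a gene gave no other value, as each gene had 1. The stage term sets each GC array against the oocyte array of its stage, and without it the SE was 0.67 for FST, 0.74 for INHA and 0.52 for INHBA, with adjusted p of 0.518, 0.645 and 0.607. What limits all results is 1 array per stage and compartment.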
